A study of Bos taurus with 8 samples.

Results

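The genes examined were 10 histone deacetylases and sirtuins of the bovine genome, HDAC1, HDAC2, HDAC3, HDAC5, HDAC6, HDAC8, HDAC11, SIRT1, SIRT2 and SIRT3. A gene was taken as measured when a non-control probe carried a RefSeq accession that the reference gives to its symbol, and this held for 7 of the 10, out of 7788 genes named on the array. HDAC2, HDAC3 and SIRT3 had no such probe and are not analysed here. Each of the 7 measured genes had 1 probe, printed as 2 spots. Their accessions were NM_001037444 (HDAC1), NM_001038025 (HDAC5), NM_001098960 (HDAC6), NM_001076231 (HDAC8), NM_001102056 (HDAC11), NM_001192980 (SIRT1) and NM_001113531 (SIRT2).

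The RNA came from rumen papillae of 4 ruminally cannulated Holstein cows, taken from the ventral sac 4 h after feeding on day 21 of a feeding period. In a crossover, each cow received a low-concentrate diet (LC group, 40% concentrate feed) in one period and a high-concentrate diet (HC group, 70%) in the other, so each group held the same 4 animals. Cows 1 and 2 were on LC in period 1, and cows 3 and 4 on LC in period 2. Each sample was hybridized to 1 single-colour Agilent array, and the 4 arrays of a period shared a slide, so period and slide cannot be told apart. The authors' table of normalized values carried the signals of cows 1 and 2 under each other's names on both diets. With these names exchanged, its 56 values of the genes below lay within 0.024 (log2) of those used here, and without the exchange within 0.39. Which naming is right is not known, and neither the diet comparison nor the pairing of arrays depends on it.

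Histone deacetylases remove acetyl groups from lysines of histones and other proteins, which commonly goes with more compact chromatin and lower transcription. The HDACs are zinc-dependent enzymes, and butyrate, a product of rumen fermentation that the rumen epithelium takes up and oxidizes, is a classical inhibitor of several of them. The sirtuins form a separate family that uses NAD as a cosubstrate and is not inhibited by butyrate in this way. The description of these genes as targets of butyrate therefore does not cover SIRT1, SIRT2 and SIRT3. It holds for several of the HDACs and not for each of them, and inhibition by butyrate was not measured here. The arrays measured the mRNA of these genes, and neither enzyme activity nor histone acetylation.

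All 7 genes were well above background, by the scanner software's own test, on all 8 arrays. The values below are quantile-normalized log2 signals, which compare arrays for 1 probe and do not rank 1 gene's level against another's. Per array, signals that passed this test started at 2.02 to 2.77, and SIRT1 lay between 5.12 and 6.32, with a mean raw intensity of 37.2 to 87.5. HDAC8 had raw intensities of 136.9 to 205, and those of the other 5 genes were at least 801. The median difference between the 2 spots of a probe was 0.04 (HDAC6) to 0.23 (SIRT2) on the log2 scale. Of 8 epithelial markers with a probe, 7 passed the background test on every array. So did 16030 of all 21475 probes and 10 of 10 stroma and muscle markers, so passing does not identify the tissue. KRT14 had a mean log2 signal of 17.97 on LC and KRT15 one of 16.88. TP63, a basal cell factor, was well above background on no array.

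Between the diets, 1 of the 7 genes had an unadjusted p under 0.05 from limma. This was SIRT1, whose signal was 1.44-fold higher in the HC group. Among all 21475 probes, 3.65% had such a p in either direction, 1.85% with a higher and 1.8% with a lower signal on HC. No gene of the 7 also reached a fold change of 1.5, the study's criterion, which 0.922% of all probes met. The other 6 log2 differences, HC minus LC, lay between -0.09 and 0.07, and the median of the 7 was 0.04, against 0.00 for all probes. No adjusted p of the 7 was under 0.9995 (Benjamini-Hochberg over all probes).

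**Figure D1:**
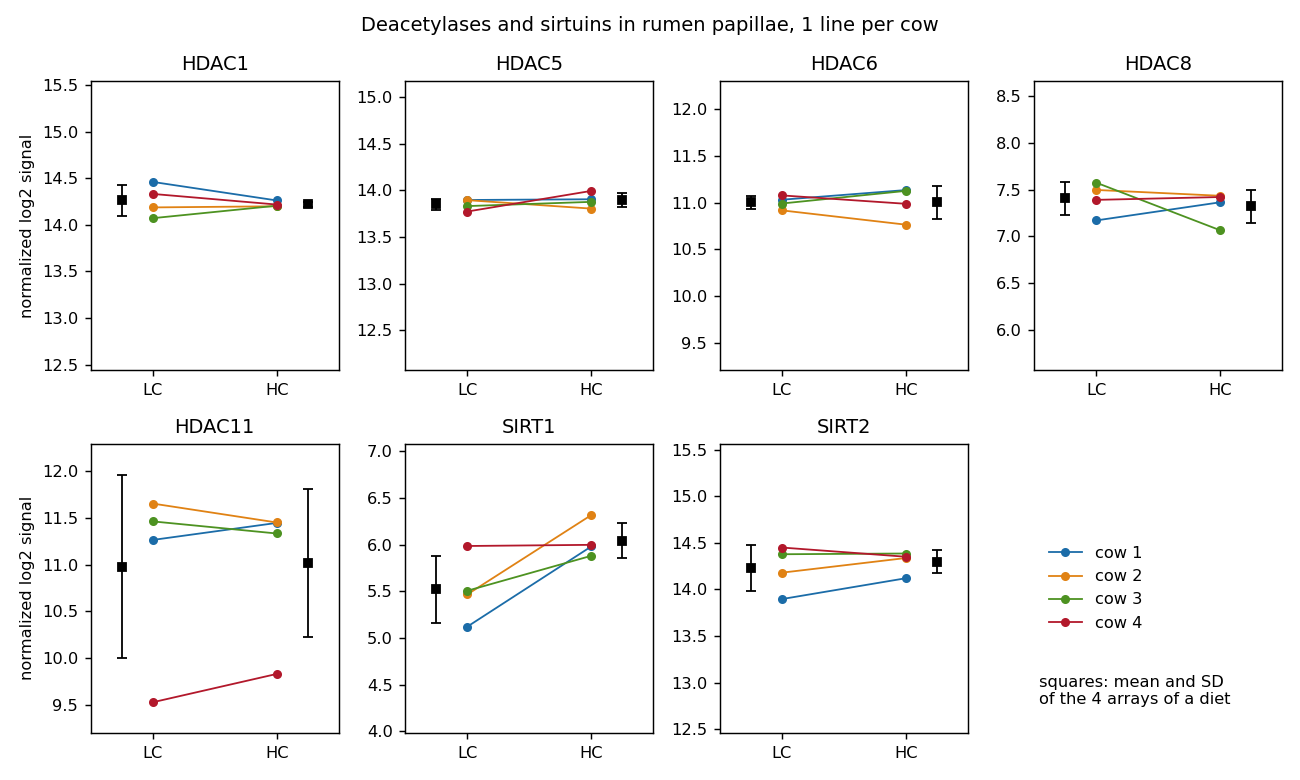
Normalized log2 signal of the 7 genes (vertical axes, each spanning the same log2 range) on the LC and HC diets, with 1 line per cow and squares for the mean and SD of 4 arrays. The SIRT1 line goes up in each cow, by 0.01 to 0.86, and cow 4 lies far below the other cows for HDAC11 on both diets.

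SIRT1 encodes a mainly nuclear NAD-dependent deacetylase that acts on histones and on transcription factors. In the LC group its log2 signal was 5.12, 5.47, 5.51 and 5.99 in cows 1 to 4, a mean of 5.52 ± 0.36 (SD, n = 4). In the HC group it was 5.98, 6.32, 5.88 and 6.0 in cows 1 to 4, a mean of 6.04 ± 0.19 (SD, n = 4). The groups overlapped through cow 4, whose LC array was above 2 of the HC arrays. The difference within a cow was above 0 in all 4, at 0.86 (cow 1), 0.85 (cow 2), 0.37 (cow 3) and 0.01 (cow 4), and 6% of all probes were higher on HC in all 4 cows. The log2 difference was 0.52 (standard error 0.16, 95% interval 0.14 to 0.91), which is a fold change between 1.10 and 1.88, with an unadjusted p of 0.0152 and an adjusted p of 0.9995. The exact two-sided permutation p was 0.0857, where 4 arrays against 4 can reach 0.0286.

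The SIRT1 difference had the same direction on each slide. Within period 1 the mean of the HC arrays was 0.65 above that of the LC arrays, and within period 2 it was 0.40 above. Blocking on cow gave SIRT1 an unadjusted p of 0.00519 with period in the fit and 0.0293 without it, and a random cow effect one of 0.00218. In these fits 1260, 761 and 1578 of all 21475 probes, in that order, had a p under 0.05, against 784 in the main fit. Leaving out the LC array of cow 1 gave a log2 difference of 0.44 with an unadjusted p of 0.0516, and leaving out the HC array of cow 2 one of 0.44 with an unadjusted p of 0.0520, neither of them under 0.05. Without both arrays of cow 4 the difference was 0.61, or 1.53-fold, with an unadjusted p of 0.0249 from limma. In that setting, chosen after seeing the data, 1441 of all probes had a p under 0.05. With normexp background correction the difference was 0.21, and the offset of 50 in that setting shrinks the ratios of signals as dim as those of SIRT1.

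**Figure D2:**
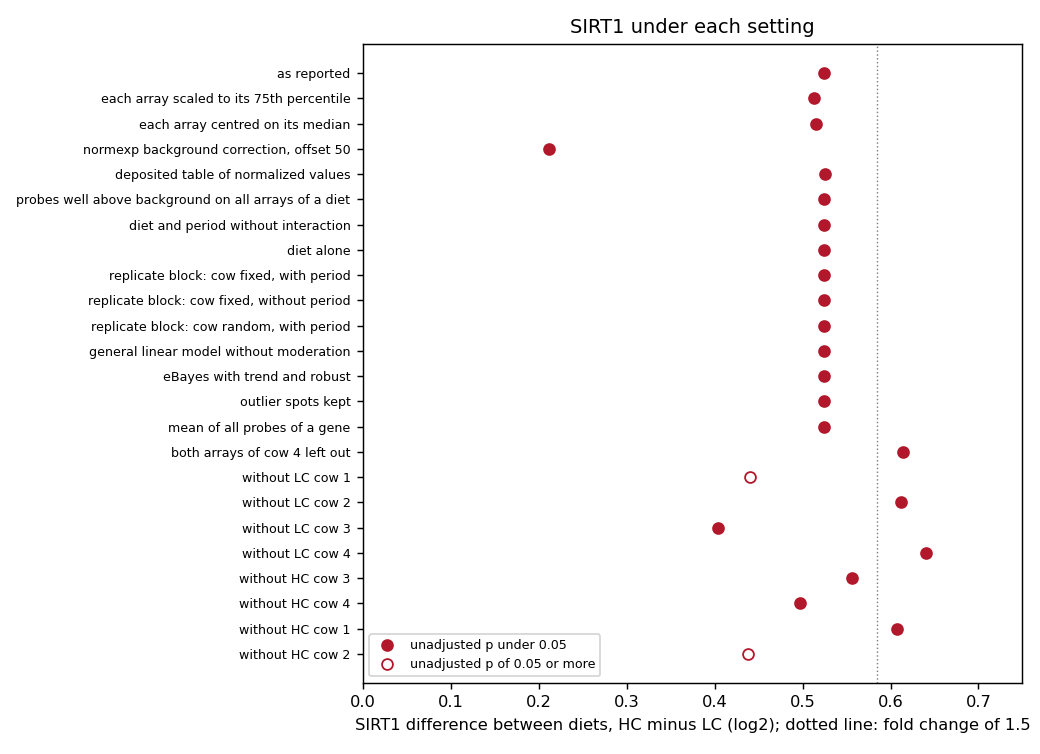
Log2 difference of SIRT1 between the diets, HC minus LC (horizontal axis), as reported and under 23 other settings (rows). Filled points have an unadjusted p under 0.05, which held under 21 of the 23, and all values lie above 0, from 0.21 to 0.64.

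Genes whose profiles over the 8 arrays were among the most like that of SIRT1 were TUBE1 (Pearson r = 0.955) and ZNF304 (r = 0.904), out of 6468 named genes well above background on all arrays. TUBE1 encodes epsilon-tubulin and ZNF304 a zinc finger protein. The 8 arrays come from 4 cows and share their normalization, so the r values describe these arrays.

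SIRT2 encodes a largely cytoplasmic deacetylase whose substrates include alpha-tubulin. Its log2 signal in the LC group was 13.90, 14.18, 14.38 and 14.45 in cows 1 to 4, and in the HC group 14.12, 14.34, 14.39 and 14.35. The groups overlapped, and 3 of 4 cows were higher on HC. The log2 difference was 0.07 (95% interval -0.19 to 0.33, p = 0.520, exact permutation p = 0.686), so that a fold change outside 0.879 to 1.26 lay beyond the interval. On both diets the SIRT2 signals of cows 1 and 2 were below those of cows 3 and 4, with cow means of 14.01, 14.26, 14.38 and 14.40. In the crossover this contrast is the diet by period interaction, for which the unadjusted p was 0.0504 (log2 value -0.51) and 10.2% of all probes had one under 0.05. Fitted to cow means, since the contrast lies between animals, the p was 0.129.

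Among the HDACs, HDAC1 is a class I enzyme and a catalytic subunit of the SIN3, NuRD and CoREST corepressor complexes. HDAC1 log2 signals were 14.46, 14.19, 14.07 and 14.33 on LC and 14.26, 14.20, 14.20 and 14.22 on HC in cows 1 to 4. The 4 HC arrays lay within the range of the LC arrays. Their SD was 0.03, against 0.17 for the LC arrays, a difference in spread that was not tested. The HDAC1 log2 difference was -0.04 (standard error 0.11, p = 0.714, exact permutation p = 0.714), with a fold interval of 0.809 to 1.17.

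HDAC8, a class I enzyme that also deacetylates the cohesin subunit SMC3, had log2 signals of 7.17, 7.50, 7.57 and 7.39 on LC in cows 1 to 4, and 7.37, 7.43, 7.06 and 7.42 on HC. Its cows did not share a direction, with differences of 0.19 in cow 1 and -0.51 in cow 3 as the extremes. The HDAC8 difference between the diets was -0.09 (standard error 0.13, p = 0.527, exact permutation p = 0.486), with a fold interval of 0.757 to 1.17.

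HDAC5 is a class IIa enzyme that shuttles between nucleus and cytoplasm and binds MEF2 factors. On LC its log2 signal was 13.90, 13.90, 13.83 and 13.77 in cows 1 to 4, and on HC 13.91, 13.81, 13.88 and 14.00. It had the narrowest range of the 7 over the 8 arrays, 0.22, and 2.4% of the 16030 probes that passed the background test on every array had a smaller one. The diet difference of HDAC5 was 0.05 (standard error 0.08, p = 0.604, exact permutation p = 0.400), with a fold interval of 0.896 to 1.19.

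HDAC6, a class IIb and mainly cytoplasmic tubulin deacetylase, had log2 signals of 11.03, 10.92, 10.99 and 11.08 on LC and 11.14, 10.76, 11.13 and 10.99 on HC in cows 1 to 4. The array of cow 2 was the lowest of its group on either diet. The HDAC6 diet difference was 0.00 (standard error 0.11, p = 0.993, exact permutation p = 0.971), with a fold interval of 0.825 to 1.21.

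**Figure D3:**
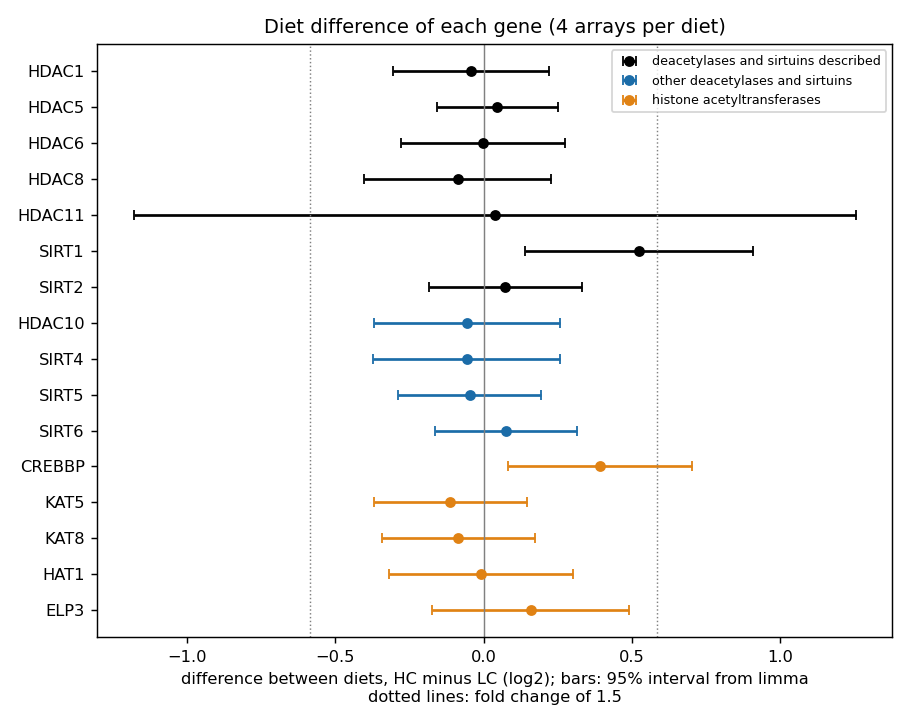
Difference between the diets, HC minus LC on the log2 scale (horizontal axis), with 95% intervals from limma for the 7 genes, 4 other deacetylases and sirtuins and 5 histone acetyltransferases. The intervals of SIRT1 (0.14 to 0.91) and CREBBP (0.08 to 0.70) exclude 0, and that of HDAC11 is the widest.

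HDAC11, the only class IV member of the family, differed between animals by more than between diets. Its log2 signal in cows 1, 2 and 3 was 11.27, 11.66 and 11.46 on LC and 11.45, 11.45 and 11.33 on HC. In cow 4 it was 9.53 on LC and 9.83 on HC. The 2 arrays of cow 4 were hybridized on different slides, and both lay at least 1.44 (log2) below the lowest of the other 6. The mean of cow 4 was 1.76 below that of the other 3 cows, a 3.39-fold lower signal. Both arrays of cow 4 were well above background for this probe, and the largest difference between its spots was 0.26 on any array.

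Over the 8 arrays, the range of HDAC11 was 2.13, and 98.5% of the same 16030 probes had a smaller range. A gap as large between cow 4 and all other arrays, downwards, was found for 7 of these 16030 probes, HDAC11 included. Gaps of at least 1 downwards were found for 7 to 15 probes in each of the 4 cows, and for 9 in cow 4. In a fit of cow, diet and period, added after these values were seen, the moderated F test over cows gave HDAC11 an unadjusted p of 0.000849 and an adjusted p of 0.121. Without period in the fit these were 0.000282 and 0.0808. HDAC11 was the 1 gene of the 7 with an unadjusted p under 0.05 in this test, which 16.3% of all probes had, while 0.158% had an adjusted p under 0.05. Whether the probe or the transcript differs in cow 4 was not tested.

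For diet, the HDAC11 interval depended on whether the arrays of a cow were paired. Without pairing the log2 difference was 0.04 (95% interval -1.18 to 1.26, p = 0.942, exact permutation p = 0.914), so fold changes from 0.441 to 2.39 lay within the interval. With a cow block and period in the fit, the difference of 0.04 had a standard error of 0.13 in place of 0.50 and a 95% interval of -0.30 to 0.38, or fold changes from 0.811 to 1.3, with an unadjusted p of 0.776. Without both arrays of cow 4 it was -0.07 (standard error 0.15, 95% interval -0.49 to 0.35), with an unadjusted p of 0.666. Cows 1 and 4 were higher on HC, by 0.18 and 0.30, and cows 2 and 3 lower. The diet by period interaction of HDAC11 was 1.83 on the log2 scale, with an unadjusted p of 0.116, and 0.11 without cow 4. It was 2.81 with an unadjusted p of 0.0160 without the LC array of cow 3, and 2.59 with an unadjusted p of 0.0453 without the HC array of cow 3, fits in which cow 4 is alone in its diet and period.

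For period, none of the 7 genes had an unadjusted p under 0.05 with limma, against 12.3% of all probes. SIRT1 came nearest, with 5.62 ± 0.40 (SD, n = 4) in period 1 and 5.95 ± 0.33 (SD, n = 4) in period 2, a log2 difference of 0.33 (standard error 0.16) with an unadjusted p of 0.0796. Its p for period became 0.0272 with a fixed and 0.0216 with a random cow block. The other 6 period differences lay between -0.09 (HDAC5) and 0.15 (HDAC8), with unadjusted p values of at least 0.282.

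Of 8 further deacetylases and sirtuins, 4 had a probe, HDAC10, SIRT4, SIRT5 and SIRT6, all well above background on all arrays. For these and the genes below, p values marked exact are two-sided permutation p values over 4 arrays against 4. All other p values and the counts passing are from limma. None of the 4 had an unadjusted p under 0.05, and their log2 differences were -0.06 to 0.08. SIRT6, a chromatin-bound deacetylase, was 13.40 ± 0.10 (SD, n = 4) on LC and 13.48 ± 0.10 (SD, n = 4) on HC. HDAC10, a polyamine deacetylase, was 14.03 ± 0.26 (SD, n = 4) and 13.97 ± 0.16 (SD, n = 4). SIRT5, a mitochondrial desuccinylase, was 11.12 ± 0.17 (SD, n = 4) and 11.07 ± 0.09 (SD, n = 4).

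Of the 29 listed subunits and partners of the HDAC corepressor complexes, 12 had a probe and 0 had an unadjusted p under 0.05. Their median log2 difference was -0.06, and 9 of the 12 values were below 0. The lowest was that of ING2, a PHD finger subunit of the SIN3 complex that reads methylated histone H3, at -0.23 (standard error 0.13, exact p = 0.229). The histone chaperone RBBP7, which SIN3 and NuRD share, was at -0.15 (exact p = 0.200). It was lower on HC in 4 of 4 cows, and 11% of all probes had the same direction in all 4 cows. On the other side were MIER1, an HDAC1 and HDAC2 partner, at 0.06 (exact p = 0.600), and TBL1X, a subunit of the NCOR complex, at 0.05 (exact p = 0.8).

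Among the opposing enzymes, the histone acetyltransferases, 5 of 14 listed genes had a probe and 1 had an unadjusted p under 0.05. CREBBP, the CBP acetyltransferase and coactivator, had log2 signals of 9.96, 9.65, 10.09 and 10.05 on LC in cows 1 to 4, and 10.47, 10.29, 10.11 and 10.47 on HC. The groups did not overlap, as for 1.6% of all probes, but the highest LC array and the lowest HC array, both of cow 3, were 0.01 apart. Its log2 difference was 0.39 (standard error 0.13, limma p = 0.0210, adjusted p = 0.9995, exact permutation p = 0.0286), a 1.31-fold higher signal. An unadjusted limma p under 0.05 held under 18 of 23 other settings, with log2 differences of 0.29 to 0.48 and limma p values of up to 0.114. It was lost without the arrays of cow 2 or 4 on LC, without those of cow 1 or 4 on HC, and without both arrays of cow 4. KAT5 (-0.11, exact p = 0.457), KAT8 (-0.08, exact p = 0.514) and ELP3 (0.16, exact p = 0.286) did not pass. The median of the 5 was -0.01.

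**Figure D4:**
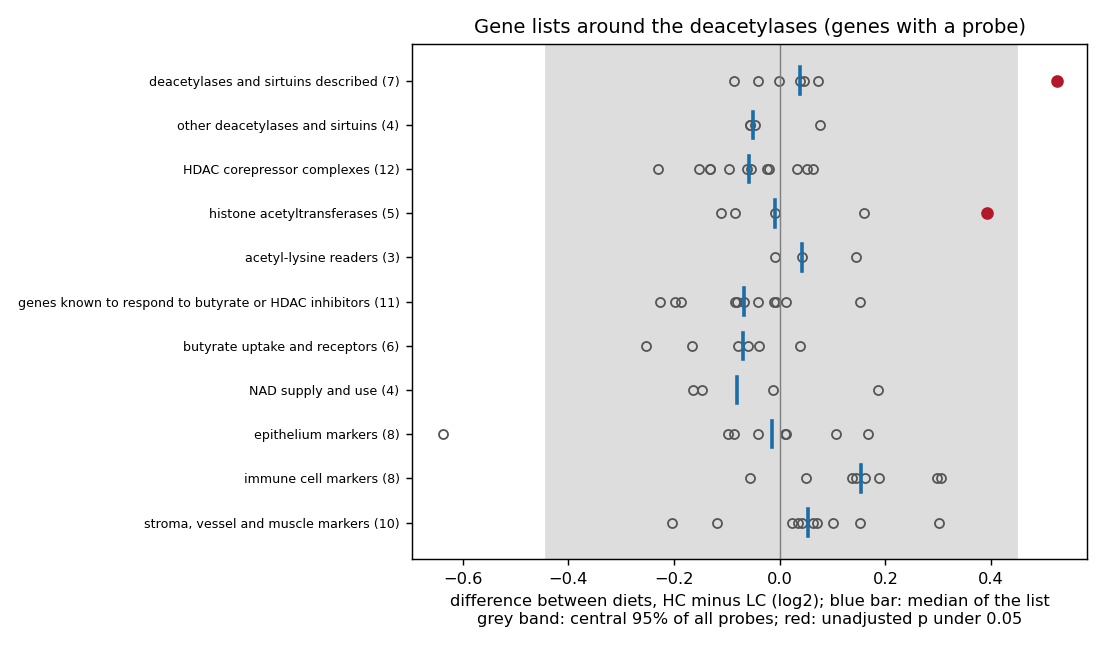
Difference between the diets, HC minus LC on the log2 scale (horizontal axis), for each gene with a probe in 11 lists (rows, number of genes in brackets). Blue bars are medians, the grey band holds the central 95% of all probes (-0.44 to 0.45), and the 2 red points with an unadjusted p under 0.05 are SIRT1 and CREBBP.

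Of 13 listed acetyl-lysine readers, proteins that bind acetylated histones through bromodomains or YEATS domains, 3 had a probe. The values were 0.14 for YEATS2 (exact p = 0.229), 0.04 for BRD9 (exact p = 0.714) and -0.01 for YEATS4 (exact p = 0.914), and 0 passed.

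Genes whose transcripts are known from cultured cells to respond to butyrate or to other HDAC inhibitors showed no call. Of 18 listed, 11 had a probe, all well above background on all arrays, and 0 had an unadjusted p under 0.05. Their median log2 difference was -0.07, with 9 of 11 below 0. CDKN1A, the p21 cell cycle inhibitor and a classical target induced by butyrate, was at -0.04 (exact p = 0.771). It was named after its values were seen. TGFB1 was at -0.23 (exact p = 0.143), the growth arrest gene GADD45B at -0.20 (exact p = 0.314), the cell cycle inhibitor CDKN2B at 0.15 (exact p = 0.457) and the alkaline phosphatase ALPL at 0.01 (exact p = 0.914).

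For butyrate uptake and sensing, 6 of 9 listed genes had a probe, of which 5 passed the background test on every array and 0 passed for diet. SLC16A1, the monocarboxylate transporter MCT1, was 13.26 ± 0.14 (SD, n = 4) on LC and 13.10 ± 0.29 (SD, n = 4) on HC, a log2 difference of -0.17 (exact p = 0.400). FFAR3, a receptor for short-chain fatty acids, was at -0.25 (exact p = 0.371). It was lower on HC in cows 1 to 3 and higher, by 0.80, in cow 4. Without both arrays of cow 4, left out after the data were seen, FFAR3 was at -0.65 with an unadjusted p of 0.0161 from limma. In that setting 1441 of 21475 probes had a p under 0.05. SLC16A4 was well above background on no array.

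Of 14 genes that make or use NAD, 4 had a probe and 0 passed. NMNAT1, the nuclear enzyme of NAD synthesis, was at 0.19 (exact p = 0.171), NMNAT2 at -0.15 (exact p = 0.657) and PARP1, a large consumer of NAD in the nucleus, at -0.16 (exact p = 0.257).

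The papillae are bulk samples, in which fewer cells of a type and less RNA per cell cannot be told apart. Of 8 measured immune cell markers, 7 had a higher mean on HC and 0 had an unadjusted p under 0.05, with a median log2 difference of 0.15. Only 5 of the 8 passed the background test on every array, of which 4 had a higher mean on HC, with a median of 0.14. The mean log2 level of these 5 was 8.42 to 8.62 on the LC arrays and 8.45 to 8.95 on the HC arrays. That of all 8 was 6.39 to 6.64 on the LC arrays and 6.52 to 6.82 on the HC arrays. ITGAM, a myeloid marker, was well above background on no array, CD8A and MS4A1 on some arrays, while the T cell marker CD3E was at 0.30 (exact p = 0.257), the monocyte marker CD14 at 0.31 (exact p = 0.314) and CD4 at -0.06 (exact p = 0.600). The part of these markers in the SIRT1 difference was not tested.

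Epithelial markers were at a mean level of 13.01 to 13.43 on LC and 12.98 to 13.55 on HC, and 0 of 8 passed. PKP1 (0.17), DSG3 (0.11), SFN (-0.10) and DSG1 (-0.64), all of desmosomes or the squamous layers, had unadjusted p values of 0.289 to 0.471 from limma. DSG1 differed widely between arrays, with a range of 3.79. Its signal went from 12.21 on LC to 9.64 on HC in cow 1, and from 12.26 to 12.92 in cow 4. Of 10 stroma and muscle markers 0 passed, with a mean level of 11.35 to 11.63 on LC and 11.42 to 11.63 on HC. The listed vessel markers, PECAM1 and CDH5, had no probe. COL3A1 was at 0.30 (exact p = 0.371), LUM at 0.07 (exact p = 0.600), DCN at -0.20 (exact p = 0.0857) and VIM at -0.12 (exact p = 0.543).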

How the data were processed

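RNA of rumen papillae was hybridized to 8 single-colour arrays. The deposited scanner output (Feature Extraction 10.7.3.1) gives an intensity per spot after background subtraction, not scaled across arrays. A table of log2 values, which the authors had quantile-normalized, was used as an alternative. Control spots and the 0 to 13 outlier spots per array were removed, no spot was saturated, and log2 intensities were quantile-normalized and averaged per probe (limma 3.58.1, R 4.3.3). Per array, 76.9 to 81.2% of the 21475 probes were well above background (all spots), and the small number of arrays limits precision.

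The terms of the study's model (diet, period, interaction) were fitted with limma to all probes (4 residual degrees of freedom), with Benjamini-Hochberg adjustment over all of them. Exact permutation tests used the 4 arrays per diet. The fit was tested on simulated data. The simulated arrays were independent and had no cow effect, so the fit was not tested for arrays that share a cow. Tables and plots were made with Python 3.11.15, pandas 2.3.3 and matplotlib 3.10.9. Probes were named by unversioned RefSeq accession (8297 of 10176 such probes, ARS-UCD2.0 gene table). No positions are given, since the array's annotation and the gene table are of different builds. Where a listed gene had several probes, the brightest was used.

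The genes and lists were chosen with earlier results of these data known. Besides the deacetylases, each list contributed, in each direction, its 2 genes of smallest unadjusted p among those well above background on all arrays, and any gene past both thresholds, and the genes most like SIRT1 over the 8 arrays were named. Some named items are not reported here.

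The labels name the cow, so arrays of one cow were paired in the differences within a cow and in the alternative fits with a cow block. The main fit and the exact permutation tests did not pair them. Deviations from the diet mean had an r of 0.113 to 0.467 between the arrays of one cow and of -0.237 to 0.185 between cows, where the LC array of cow 1 and the HC array of cow 4 (0.185) exceeded the pair of cow 4 (0.113), across 16030 probes, which are not independent. Alternatives covered scaling, background correction (normexp on the median spot signal, as the mean signal was not in the files used), filters, model terms, the cow block, moderation and left-out arrays.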

Additional observations from a re-analysis of the deposited data

Results flagged for a closer look

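HDAC11 in the HC group was set apart by 1 array, that of cow 4, whose gap to the nearest of the other 3 was 0.927 of the range of the group. TBL1X in the HC group had a gap of 0.874, with the array of cow 3 above the others. Cow 3 also had the highest TBL1X signal on LC, 8.24 there and 8.25 on HC. Both flags came from 82 groups of 4 arrays (41 genes on 2 diets), and chance alone marks about 1 in 20 groups. The diet by period interaction of PARP1 had an unadjusted p of 0.0261, where 10.2% of all probes had one under 0.05. Its adjusted p was 0.445 and its p on the mean of each cow 0.0863, so a diet difference that depends on the period is not shown. Of all 78 listed genes with a probe, 4 (5.13%) had an unadjusted interaction p under 0.05, the others being SIRT4 (0.0476), MTA2 (0.0204) and TYMS (0.0109). On cow means 1 of these 4 had one, TYMS (0.0251). CD68, outside the 4, had an unadjusted interaction p of 0.0307 on cow means and 0.0810 in the main fit. The share of all probes under 0.05 on cow means is not given here. SIRT4, MTA2, TYMS and CD68 were named here after their values were seen.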

How the results depend on the processing

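The diet difference of SIRT1 kept its direction under all 23 other settings. The number of the 7 genes with an unadjusted p under 0.05 for diet stayed at 1 under all 15 settings that did not leave out a single array, and was 0 to 1 as each array was left out. The number that also reached a fold change of 1.5 was 0, but 1 (SIRT1) without both arrays of cow 4, chosen after seeing the data, and 0 to 1 as each array was left out (1 without LC cow 2, LC cow 4 or HC cow 1). For period it was 0, but 1 (SIRT1) with cow as a fixed or random replicate block and period, and 0 to 1 with an array left out (1 without LC cow 3). For the interaction it was 0, but 1 (SIRT2) with normexp, the deposited table, the filter on dim probes, no moderation or trended robust moderation, and 0 to 1 with an array left out (SIRT2 without LC or HC cow 2, HDAC11 without LC or HC cow 3). The cause of these changes was not tested. The block changed no other call of the 7 genes. Differences near 0 changed sign under some of the 23 settings, 3 for HDAC1, 6 for HDAC6, 1 for HDAC8 and 4 for HDAC11, none with an unadjusted p under 0.05. Single genes were followed over the settings for 41 genes, the 7 and those taken from the lists by smallest p, and not for the remaining listed genes. Among these 41, of the genes not called for diet, CD3E, DCN and PARP1 were called under 3 settings each. CD14, FFAR3, GADD45B and TGFB1 were called under 1 each. With the random cow block, CD3E had an unadjusted p of 0.0438, DCN of 0.0402 and TGFB1 of 0.0352, and 1578 of all 21475 probes had one under 0.05. Over all probes, the number past both thresholds was 198, and 8 (normexp) to 587 (without cow 4) otherwise.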
